A study of Mus musculus with 14 samples.

Results

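The semaphorins, their plexin and neuropilin receptors, and the ephrins with their Eph receptors were followed as one set of guidance genes in mouse embryonic fibroblasts (MEFs) that differed in the NF-κB subunit p65. The set held every gene whose name on the array placed it among semaphorin classes 3 to 7, plexins A to D, neuropilins 1 and 2, EphA and EphB receptors, or ephrins A and B. It came to 52 genes on 91 probes, out of 27962 gene names on 41174 probes, and 29 of the 52 had several probes. Each gene was read from its brightest probe, chosen by the mean over all arrays and not by any difference between groups.

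The cells were *p65*(-/-) NIH 3T3 MEFs, which lack the endogenous p65 protein, and all lines shared that deletion. By lentiviral complementation with a myc-tagged construct and selection with blasticidin, pools of cells received wild type p65 (wt), the triple mutant KTR (lysines 310, 314 and 315), the double mutant K314/315R, or the empty vector pTV. The mutants carry arginine in place of lysines that can be acetylated. After overnight starvation, TNFα (from mouse, at 30 ng/ml) was given to the 4 lines and RNA taken 3 hours later, and the wild type line was also left unstimulated (0 hours). Arrays numbered 3 for wild type at 3 hours, 3 for KTR, 2 for K314/315R, 3 for pTV and 3 for unstimulated wild type. The paper states that RNA of the replicates was isolated on different days. Each line was 1 pool, so its replicates were repeats of that pool and the spread between pools of one construct was not measured. The pTV, KTR and K314/315R lines had no unstimulated arrays here, so a TNFα response could be computed for the wild type line alone.

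Semaphorins are secreted or membrane-bound signals that act on plexins, in class 3 mostly with a neuropilin as the binding partner, and plexins pass the signal on to small GTPases and the cytoskeleton. Ephrins are membrane-anchored ligands of the Eph receptor tyrosine kinases, and because ligand and receptor sit on neighbouring cells, both sides can signal. These families were first known from axon guidance, and in fibroblasts and other mesenchymal cells they act on adhesion, contact repulsion and migration.

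Of the 52 genes, 42 could be tested, because no array of at least 1 group had their probe below the scanner's limit for being well above background, and 36 of them passed that limit on all 14 arrays. The other 6 tested genes passed through some groups only: *Efna3*, *Plxna4*, *Plxnc1*, *Sema3g*, *Sema4g* and *Sema6b*. The 10 untested genes were the receptors *Epha3*, *Epha5*, *Epha6*, *Epha8*, *Epha10*, *Ephb1* and *Plxnb3*, which passed it on 0 arrays, and *Sema3d*, *Sema6a* and *Sema6d*, which passed it on 1, 1 and 5 arrays. By family, 6 of 7 class 3 semaphorins, 11 of 13 class 4 to 7 semaphorins, both neuropilins, 7 of 8 plexins, all 5 ephrin-A and all 3 ephrin-B ligands and 4 of 5 EphB receptors were testable. Of the EphA receptors 4 of 9 were tested (*Epha1*, *Epha2*, *Epha4* and *Epha7*) and 5 passed the limit on 0 arrays. Levels below are log2 signals minus the 75th percentile of each array, and they were compared within a gene only. A gene was called where limma gave an adjusted p under 0.05 over all tested probes and the difference passed 2-fold against pTV, or 1.8-fold otherwise.

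Of 4 slides, the first 3 (slides 1 to 3) carried 1 array apiece of stimulated wild type, KTR, pTV and unstimulated wild type cells. Both K314/315R arrays were on slide 4, so that line and slide cannot be told apart. The 75th percentile of signal ranged from 966.7 to 1442, and 49.9 to 57.7% of spots were well above background. The median of the 5 spike-in controls was 5.73 on slide 4 and 4.48 on slides 1 to 3, on the same log2 scale. *Rela*, which encodes p65, did not check the labels: its brighter probe differed between wild type and pTV by 0.35 (SE 0.17, limma adjusted p = 0.213), and its dimmer probe by 0.61 (SE 0.16, limma adjusted p = 0.0218). Of 15 fibroblast markers, 13 were well above background on all arrays (*Fap* and *Lum* on none), and *Pecam1*, *Cdh5*, *Tek* and *Tie1* of endothelium, *Ptprc* of leukocytes, *Epcam* and *Cdh1* of epithelium, *Nefl* of neurons and *Gfap* of glia were so on none. Other markers of those lists were seen on all arrays: 4 of 11 for neurons, 2 of 8 for epithelium, 2 of 10 for leukocytes, 1 of 9 for glia and 0 of 8 for endothelium. The summed linear level of the fibroblast list lay between 1164 and 1329 on wild type arrays at 3 hours and between 1084 and 1294 on pTV arrays, and that of the epithelial list between 0.86 and 1.02 and between 1.16 and 1.51. Inside those lists, *Dcn*, *Pdgfra*, *Pdgfrb* and the leukocyte marker *Coro1a* exceeded pTV in wild type cells (log2 differences 1.12, 1.77, 1.99 and 1.39). The epithelial marker *Krt18*, well above background on 5 arrays, *Thy1* and *Gap43* were lower (-2.53, -1.19 and -1.17). The part of such differences between the lines in the results below was not tested. In whole-culture RNA, fewer cells with a transcript and less transcript per cell cannot be told apart.

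Against the empty vector, wild type cells at 3 hours of TNFα had 5 guidance genes higher and 4 lower. The higher ones were *Epha7*, *Nrp2*, *Plxnc1*, *Epha4* and *Sema3c*, and the lower ones *Sema7a*, *Sema4f*, *Epha2* and *Efnb2*. This was 11.9% and 9.52% of the 42 tested members, where 4.04% (higher) and 1.61% (lower) of all 14877 tested genes were called. The median log2 difference of the 42 genes was -0.0954, against -0.0227 over all genes. KTR cells had 3 genes higher and 2 lower than pTV, or 7.14% and 4.76%, with 3.8% and 1.49% of all genes called. K314/315R cells had 4 higher and 4 lower, 9.52% each way, with 4.76% and 4.23% of all genes called. With normexp background correction of the unprocessed signals, the counts of called genes were 2 for wild type (*Sema7a* and *Efnb2*), 1 for KTR (*Sema7a*) and 3 for K314/315R cells (*Sema7a*, *Nrp2* and *Sema5b*), each difference keeping its direction. These 3 comparisons share the same pTV arrays, so that likeness between them is not independent evidence. Together, 12 of the 42 genes were called in at least 1 of 6 comparisons and 30 in none, where 11.2% of all genes were called in at least 1. Of those called over pTV, 4 genes (*Sema7a*, *Nrp2*, *Sema3c* and *Plxnc1*) passed in all 3 lines that carry p65, 4 passed in 2 lines (*Efnb2*, *Epha2*, *Epha7* and *Sema4f*) and 2 in 1 line (*Epha4* and *Sema5b*). Of all genes, 3.98% passed in all 3 lines, 1.59% in 2 and 4.81% in 1.

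**Figure D1:**
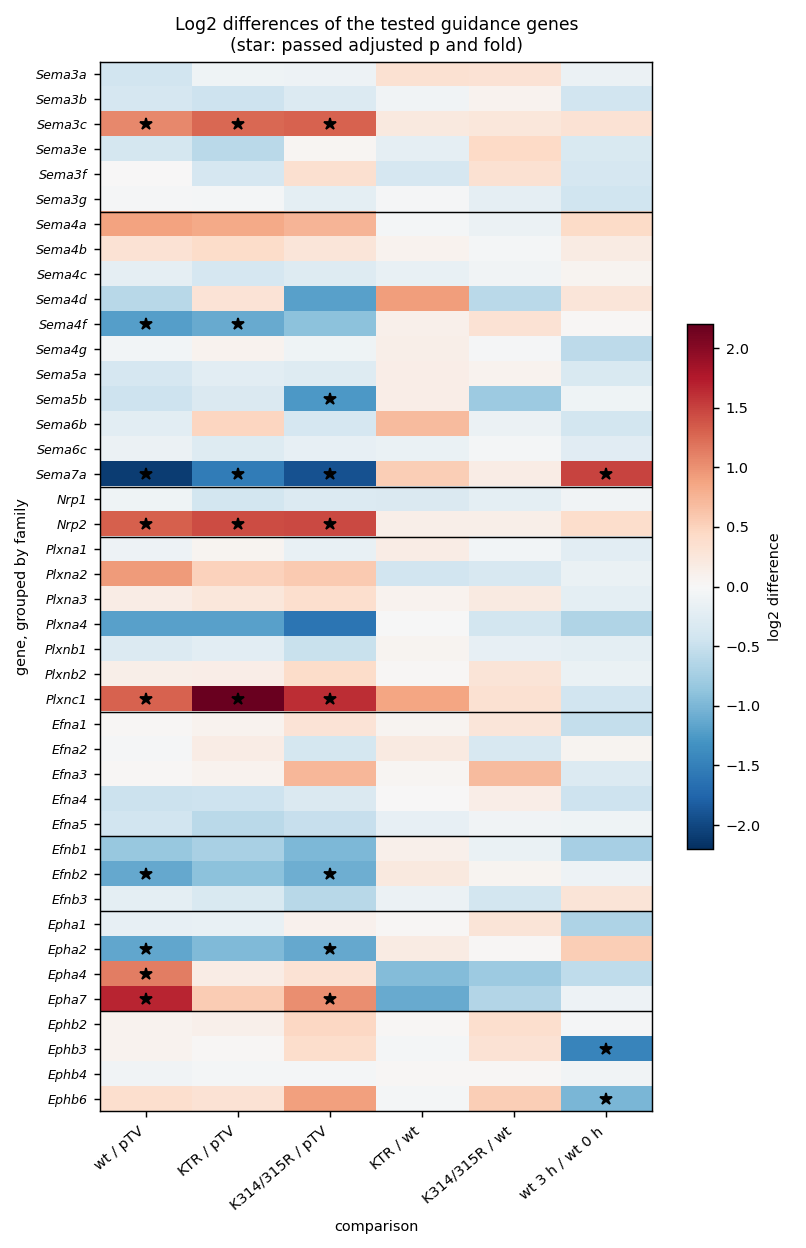
Log2 differences of the 42 tested guidance genes (vertical axis, grouped by family with black lines) in 6 comparisons (horizontal axis), red for higher and blue for lower in the first group named, with a star where the gene was called. The first 3 columns share the pTV arrays and hold most stars, and the KTR and K314/315R columns against wild type hold none.

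*Sema7a*, which encodes a GPI-anchored semaphorin that binds plexin C1 and integrins, differed most of the semaphorins from pTV. Its level was 3.76, 3.00 and 3.43 on the pTV arrays, 1.29, 1.05 and 1.59 on the wild type arrays at 3 hours, 1.99, 1.90 and 1.67 on the KTR arrays, and 1.65 and 1.30 on the K314/315R arrays. Unstimulated wild type cells were at -0.40, -0.14 and 0.00, below all other groups. The 3 sets of values therefore lay in separate ranges, with pTV highest, the 3 p65 lines at 3 hours in the middle and unstimulated cells lowest. The log2 difference from pTV was -2.08 (SE 0.20, limma adjusted p = 1.5e-05) in wild type, -1.54 (SE 0.20, limma adjusted p = 0.000222) in KTR and -1.92 (SE 0.22, limma adjusted p = 8.85e-05) in K314/315R cells. Over the 3 hours of TNFα, *Sema7a* rose in wild type cells by 1.49 (SE 0.20, limma adjusted p = 0.0012), or 2.82-fold, and it was the only member called higher in that comparison. With normexp background correction this value was 1.22 (limma adjusted p = 0.32). The same gene was thus raised by TNFα where p65 was present and still stood 4.24-fold below the TNFα-treated line without p65. KTR cells lay above wild type without overlap, by 0.54 (95% interval 0.10 to 0.98), but this did not pass the correction (limma adjusted p = 0.41).

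The promoter window of *Sema7a* is given with that of *Nrp2*, the neuropilin that moved the other way, and that of *Sema4a*, which holds a match to the κB consensus (capitals). Each runs 300 bases, from 250 before the annotated start into the first 50 transcribed bases, 5′ to 3′ on the gene's strand, from RefSeq annotation of GRCm38.p6. The windows are chr9:57939862-57940161 (plus strand) for *Sema7a*, chr1:62703067-62703366 (plus strand) for *Nrp2* and chr3:88459052-88459351 (minus strand) for the *Sema4a* start with the match, which begins at position -173 from that start.
Sema7a: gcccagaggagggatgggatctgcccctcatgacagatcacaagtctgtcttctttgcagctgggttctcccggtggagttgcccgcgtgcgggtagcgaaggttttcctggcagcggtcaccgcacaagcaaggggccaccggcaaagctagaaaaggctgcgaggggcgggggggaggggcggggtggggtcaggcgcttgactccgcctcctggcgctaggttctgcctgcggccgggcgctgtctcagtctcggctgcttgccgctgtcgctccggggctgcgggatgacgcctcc
Nrp2: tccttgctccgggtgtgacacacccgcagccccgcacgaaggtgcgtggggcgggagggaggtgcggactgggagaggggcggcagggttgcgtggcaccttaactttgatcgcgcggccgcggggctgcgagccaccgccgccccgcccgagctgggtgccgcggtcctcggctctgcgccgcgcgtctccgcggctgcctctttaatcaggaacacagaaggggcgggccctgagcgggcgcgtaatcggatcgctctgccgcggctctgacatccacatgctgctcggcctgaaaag
Sema4a: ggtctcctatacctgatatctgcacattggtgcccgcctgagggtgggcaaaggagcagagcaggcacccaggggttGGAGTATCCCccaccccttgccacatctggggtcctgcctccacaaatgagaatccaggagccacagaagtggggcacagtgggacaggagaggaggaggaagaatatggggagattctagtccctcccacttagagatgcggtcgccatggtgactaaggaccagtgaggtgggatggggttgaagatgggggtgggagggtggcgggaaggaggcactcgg
The κB consensus was searched on both strands. At least 1 match occurred in the windows of 9.55% of 27025 genes and of 17.4% (8 of 46) of the guidance genes with a window, namely *Efna2*, *Ephb1*, *Ephb2*, *Plxna3*, *Sema4a*, *Sema4b*, *Sema4c* and *Sema6c*. Of the 12 guidance genes called in any comparison, 0 had a match, which says only that these letters are not in these windows.

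*Plxnc1*, the plexin that serves as receptor for semaphorin 7A, showed the opposite direction to its ligand. On the pTV arrays (-5.45, -5.39 and -6.37) its probe never reached the limit for well above background, and in the other groups it did so on all arrays. Levels were -3.79, -4.72 and -4.82 in wild type, -3.52, -3.95 and -3.22 in KTR, -3.60 and -4.61 in K314/315R and -3.66, -3.99 and -4.40 in unstimulated wild type cells. Every p65 array thus lay above every pTV array, although the probe was dim throughout. A second *Plxnc1* probe was well above background on 0 arrays. Because pTV gave only a bound, the difference was at least 1.25-fold in wild type (limma adjusted p = 0.0329), at least 2.29-fold in KTR (limma adjusted p = 0.00158) and at least 1.58-fold in K314/315R cells (limma adjusted p = 0.0122). These bounds set the mean of the brighter group against the lowest signal that counted as well above background on each pTV array, and those of wild type and K314/315R cells lie under the 2-fold limit that the fitted differences passed. The wild type call was lost without wild type replicate 1 (limma adjusted p = 0.148) or without pTV replicate 3 (limma adjusted p = 0.126). It was also lost with quantile normalization, no filter on dim probes or only the 2 groups fitted (limma adjusted p = 0.0513, 0.0781 and 0.0669). Without K314/315R replicate 1, which leaves 1 array in that group, the K314/315R value was 1.13. With normexp background correction the values were 0.47 in wild type, 0.32 in KTR and 0.32 in K314/315R cells, and none was called.

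*Nrp2* and *Sema3c* were both higher than pTV in all 3 p65 lines. *Nrp2* encodes neuropilin 2, a co-receptor for class 3 semaphorins and VEGF, and *Sema3c* one of the secreted class 3 ligands that neuropilins bind. Of 2 *Nrp2* probes, the dimmer was well above background on 0 arrays, so the values are those of the brighter one alone. *Nrp2* was at 3.71, 3.68 and 3.87 on pTV arrays, at 5.17, 4.99 and 5.04 in wild type, at 5.02 and 5.37 on the KTR arrays that gave a value, and at 5.20 and 5.19 in K314/315R cells. KTR replicate 2 was left out of this gene's fit as an outlier spot. Unstimulated wild type cells lay between, at 4.77, 4.63 and 4.65. No array of a p65 line overlapped with pTV, and the log2 difference was 1.31 (SE 0.11, limma adjusted p = 8.46e-06) in wild type, 1.44 (SE 0.12, limma adjusted p = 1.34e-05) in KTR and 1.44 (SE 0.12, limma adjusted p = 1.3e-05) in K314/315R cells.

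*Sema3c* had the same order of groups at a lower level of its own probe. It was at -2.75, -2.65 and -2.65 in pTV, -1.50, -1.58 and -1.80 in wild type, -1.50, -1.42 and -1.33 in KTR, and -1.36 and -1.41 in K314/315R cells. Unstimulated wild type cells gave -1.93, -1.91 and -2.02, again between pTV and the stimulated p65 lines. Against pTV the log2 difference was 1.06 (SE 0.093, limma adjusted p = 7.47e-06) in wild type, 1.27 (SE 0.093, limma adjusted p = 2.54e-06) in KTR and 1.30 (SE 0.10, limma adjusted p = 5.18e-06) in K314/315R cells. The wild type value fell under the 2-fold limit without wild type replicate 1 (0.99). A dimmer second probe, well above background on 10 arrays, gave 1.17 and 1.36 for wild type and KTR but 0.34 for K314/315R cells (limma adjusted p = 0.384). With TNFα, *Nrp2* and *Sema3c* differed from unstimulated cells by 0.38 and 0.32 in the wild type line, with no overlap of arrays, and neither passed the test (limma adjusted p = 0.0766 and 0.0744).

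The other neuropilin, *Nrp1*, was called nowhere, with log2 differences from -0.41 to -0.08 over the 6 comparisons. Among the remaining plexins, which pair with neuropilins or bind semaphorins directly, *Plxna2* came closest to a call. It was at 0.19, 0.13 and 0.05 in wild type, -0.30, -0.28 and -0.32 in KTR, -0.28 and -0.18 in K314/315R, -0.78, -0.80 and -0.86 in pTV and 0.35, 0.26 and 0.20 in unstimulated cells. These 5 groups did not overlap except for the mutants with each other. The difference of wild type from pTV was 0.94 (SE 0.078, limma adjusted p = 4.86e-06), or 1.92-fold, under the 2-fold limit. *Plxna1*, *Plxna3*, *Plxnb1* and *Plxnb2* stayed between -0.48 and 0.40 in all 6 comparisons with their brightest probes. The second probes of *Plxna3* and *Plxnb1* stayed inside that range. That of *Plxna1* ran from -0.85 (K314/315R over wild type) to 0.55 (KTR over pTV). That of *Plxnb2* reached -0.50 (KTR over pTV), where its brightest probe gave 0.14, and no second probe of these genes was called. *Plxna4* was well above background on 9 arrays. Its brightest probe gave -1.20 in wild type, -1.20 in KTR and -1.61 in K314/315R cells over pTV, and no comparison passed. A dimmer second probe, well above background on 3 arrays, was called lower than pTV in each p65 line. The log2 difference was -2.09 in wild type (limma adjusted p = 0.00418) and -1.89 in KTR cells (limma adjusted p = 0.00823). In K314/315R cells it was -2.77 (limma adjusted p = 0.00106).

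Among the remaining semaphorins of classes 4 to 7, which are mostly transmembrane proteins, *Sema4f* and *Sema5b* were called, both lower than pTV. *Sema4f* was at -1.76, -2.81 and -2.82 in pTV, and at -3.46, -3.67 and -3.91 in wild type, -3.44, -3.95 and -3.33 in KTR, and -3.39 and -3.35 in K314/315R cells. No array overlapped with pTV, but pTV replicate 1 stood about 1 log2 unit above the other pTV arrays. The log2 difference was -1.22 (SE 0.27, limma adjusted p = 0.00809) in wild type and -1.11 (SE 0.27, limma adjusted p = 0.0141) in KTR cells, both called, and -0.90 (limma adjusted p = 0.0424) in K314/315R cells, under the fold limit. Without pTV replicate 1 the wild type and KTR values were -0.86 and -0.76, both under 2-fold, and without KTR replicate 2 the KTR value was -0.92 (limma adjusted p = 0.0513). *Sema5b* was called in K314/315R cells alone, whose arrays were both on slide 4, at -1.94 and -1.36 against -0.47, -0.50 and -0.20 in pTV. Its log2 difference there was -1.26 (SE 0.24, limma adjusted p = 0.00228), and it fell under 2-fold without K314/315R replicate 1 (-0.97). Wild type (-1.25, -0.78 and -0.53) and KTR (-0.86, -0.58 and -0.70) also lay below pTV, by -0.46 and -0.32, and neither passed the test. *Sema4a*, a ligand of plexins known from immune and endothelial cells, was higher than pTV by 0.88 in wild type (limma adjusted p = 0.00549), 0.83 in KTR (limma adjusted p = 0.0081) and 0.75 in K314/315R cells (limma adjusted p = 0.0169), short of 2-fold in each. *Sema4d* varied most between replicates, with a standard error of 0.74 for wild type against pTV, and a log2 difference of -0.61 there could not be told from 0.

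**Figure D2:**
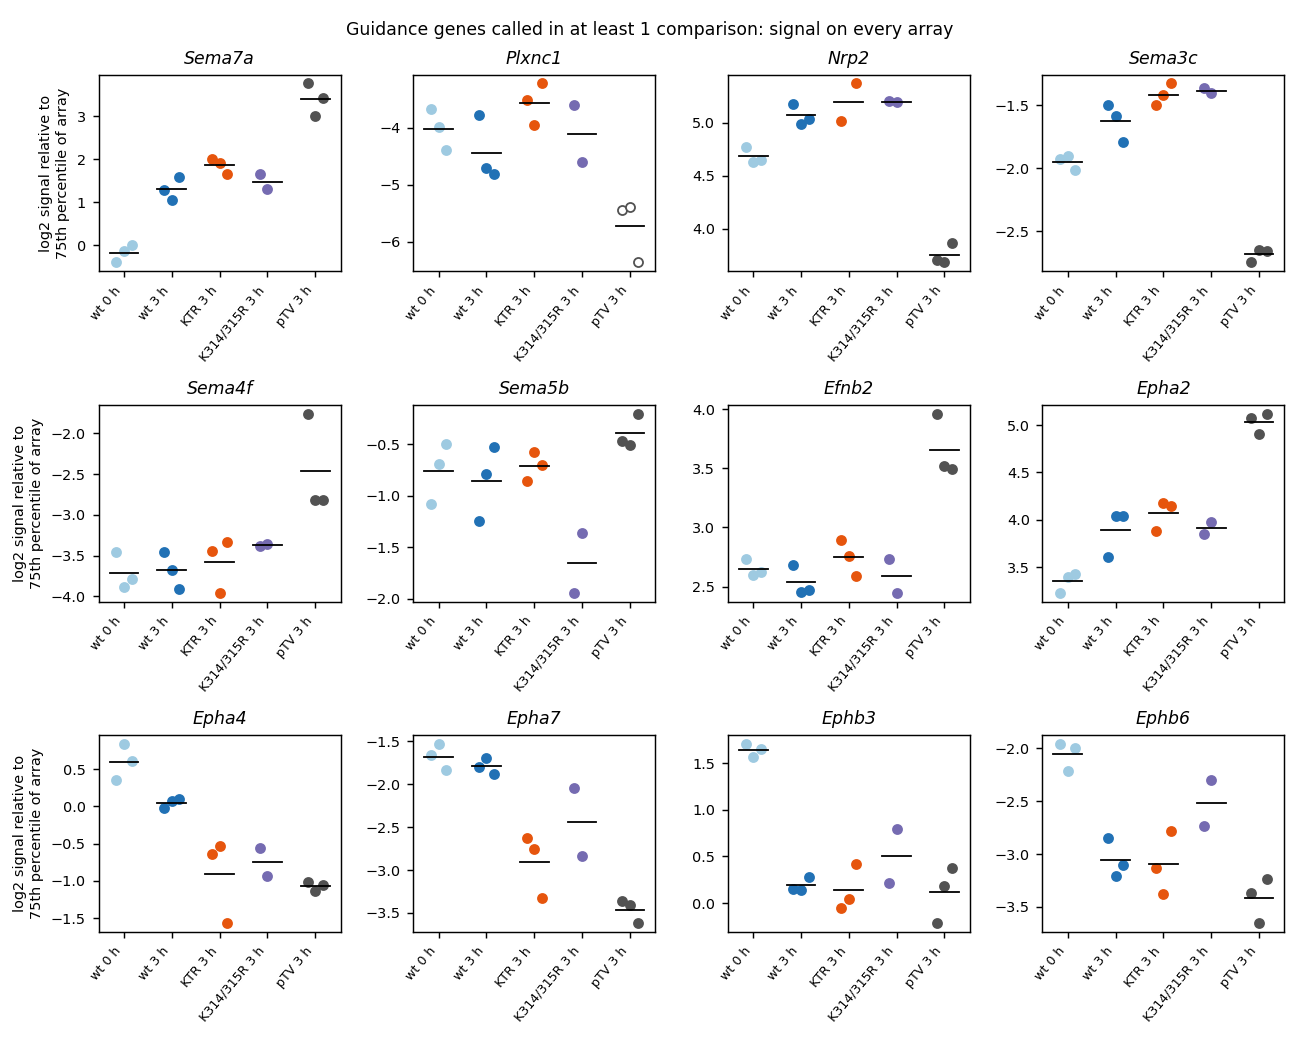
Log2 signal after subtracting the array's 75th percentile (vertical axis, its own range in each panel) of the 12 called guidance genes in 5 groups (horizontal axis). Each point is 1 array, open where the probe was not well above background, and lines are group means; *Sema7a*, *Sema4f*, *Efnb2* and *Epha2* are highest on the pTV arrays, and *Plxnc1*, *Nrp2*, *Sema3c* and *Epha7* are lowest there.

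Among the ephrins, *Efnb2* was the one that was called, and it was lower in cells with p65. It encodes ephrin-B2, a ligand of EphB receptors, and was at 3.96, 3.52 and 3.49 in pTV, 2.69, 2.46 and 2.47 in wild type, 2.89, 2.76 and 2.59 in KTR, and 2.73 and 2.45 in K314/315R cells. All p65 arrays lay below all pTV arrays. The log2 difference was -1.12 (SE 0.14, limma adjusted p = 0.00014) in wild type and -1.07 (SE 0.16, limma adjusted p = 0.000463) in K314/315R cells, and -0.91 (SE 0.14, limma adjusted p = 0.000804) in KTR cells, where it stayed under the 2-fold limit. Its second probe, also above background on all arrays, gave -1.29, -1.36 and -1.03 in the same order and was called in all 3. Without pTV replicate 1 the brighter probe fell under 2-fold in wild type (-0.97) and in K314/315R cells (-0.92), as it did in the latter without K314/315R replicate 2 (-0.92). Unstimulated wild type cells (2.73, 2.60 and 2.62) overlapped with stimulated ones.

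*Efnb1*, which encodes ephrin-B1, was at 1.71, 1.62 and 1.84 in pTV, 0.93, 0.95 and 0.78 in wild type, 1.01, 0.99 and 1.02 in KTR, and 0.62 and 0.85 in K314/315R cells. The values of the p65 lines lay below those of pTV, at log2 differences of -0.84 (SE 0.091, limma adjusted p = 4.47e-05), -0.72 (SE 0.091, limma adjusted p = 0.000187) and -0.99 (SE 0.10, limma adjusted p = 3.56e-05). All stayed under 2-fold, the K314/315R value at 1.98-fold. *Efnb3*, the remaining B ligand, was called nowhere, with log2 differences from -0.61 to 0.28.

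*Epha2*, a receptor for ephrin-A ligands, was at 5.08, 4.90 and 5.12 in pTV, 3.61, 4.04 and 4.04 in wild type, 3.89, 4.18 and 4.14 in KTR, and 3.85 and 3.97 in K314/315R cells. Unstimulated cells were lowest, at 3.23, 3.40 and 3.43, so that the order of groups was that of *Sema7a*. The log2 difference from pTV was -1.14 (SE 0.13, limma adjusted p = 7.34e-05) in wild type, -1.12 (SE 0.15, limma adjusted p = 0.00022) in K314/315R and -0.96 (SE 0.13, limma adjusted p = 0.000329) in KTR cells, the last at 1.95-fold and under the limit. The wild type value was -0.99 without wild type replicate 1. With TNFα it was higher by 0.54 in wild type cells (SE 0.13, limma adjusted p = 0.0369), or 1.46-fold, under the 1.8-fold limit.

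The other called EphA receptors, *Epha7* and *Epha4*, were higher with wild type p65 than with the empty vector. *Epha7* was at -1.80, -1.69 and -1.88 in wild type, -2.04 and -2.84 in K314/315R, -2.62, -2.76 and -3.33 in KTR and -3.36, -3.41 and -3.62 in pTV cells. Unstimulated wild type cells (-1.67, -1.53 and -1.84) overlapped with the stimulated ones. Wild type exceeded pTV by 1.67 (SE 0.21, limma adjusted p = 0.00015), or 3.18-fold, and K314/315R exceeded pTV by 1.02 (SE 0.24, limma adjusted p = 0.00766). The K314/315R difference fell under 2-fold without K314/315R replicate 1 (0.62) and without pTV replicate 3 (0.94). It also did so with the replicate number as a block (0.92, limma adjusted p = 0.0053), although that number does not pair the K314/315R arrays on slide 4. KTR exceeded pTV by 0.56 (limma adjusted p = 0.103). A second *Epha7* probe passed background on 0 arrays.

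Directly between the lines, *Epha7* was lower in KTR than in wild type cells on each of slides 1 to 3, by -0.82, -1.07 and -1.45. The log2 difference was -1.11 (SE 0.21, 95% interval -1.57 to -0.65), or 2.16-fold lower, and its limma adjusted p was 0.0604, so that it was not called. With the replicate number as a block, which on slides 1 to 3 pairs arrays of one slide, the limma adjusted p was 0.018 and *Epha7* was called. It also passed over slides 1 to 3 alone (limma adjusted p = 0.0218) and without KTR replicate 1 (-1.25, limma adjusted p = 0.0284). *Epha4*, whose receptor binds ephrins of both classes, was at -0.03, 0.06 and 0.10 in wild type, -0.64, -0.53 and -1.56 in KTR, -0.57 and -0.94 in K314/315R and -1.02, -1.14 and -1.06 in pTV cells. Unstimulated wild type cells were higher still, at 0.36, 0.84 and 0.61. Wild type exceeded pTV by 1.12 (SE 0.23, limma adjusted p = 0.00528), and a second probe gave 1.03. Neither mutant overlapped with wild type, yet neither difference passed. The values were -0.96 in KTR (SE 0.23, limma adjusted p = 0.155) and -0.80 in K314/315R cells (SE 0.26, limma adjusted p = 0.131). The paper lists *Epha4* as lower in KTR than in wild type cells, and does not state whether its p-values were adjusted. Here the unadjusted limma p of *Epha4* for KTR was 0.00129.

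In the main fit, with no block, no guidance gene was called between a mutant and wild type, and with the replicate block 1 was, *Epha7* for KTR. *Epha7* was called for KTR with slide as a random block too (limma adjusted p = 0.0129). With no block, it was called over slides 1 to 3 alone and, with *Epha4*, with no filter on dim probes (limma adjusted p = 0.0299). For K314/315R, quantile normalization called *Efna3* (limma adjusted p = 0.0398). For KTR against wild type 0.0336% of all genes were called higher and 0.188% lower, and for K314/315R against wild type 0.188% and 0.975%. At an unadjusted p under 0.05 with no fold limit, limma gave 7 of the 42 genes for KTR, or 16.7% against 9.59% of all genes, and 10 for K314/315R, or 23.8% against 17.2%. Both sets held *Epha4*, *Epha7*, *Plxna2* and *Sema3c*. *Plxna2* had the smallest adjusted p of the members in each, at -0.43 in KTR (SE 0.078, limma adjusted p = 0.0554) and -0.36 in K314/315R cells (SE 0.087, limma adjusted p = 0.0578), both also under the 1.8-fold limit. The median log2 difference of the 42 genes was 0.0402 for KTR and 0.0234 for K314/315R cells, against 0.0608 and 0.0312 over all genes. The 2 mutants share the wild type arrays as reference.

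**Figure D3:**
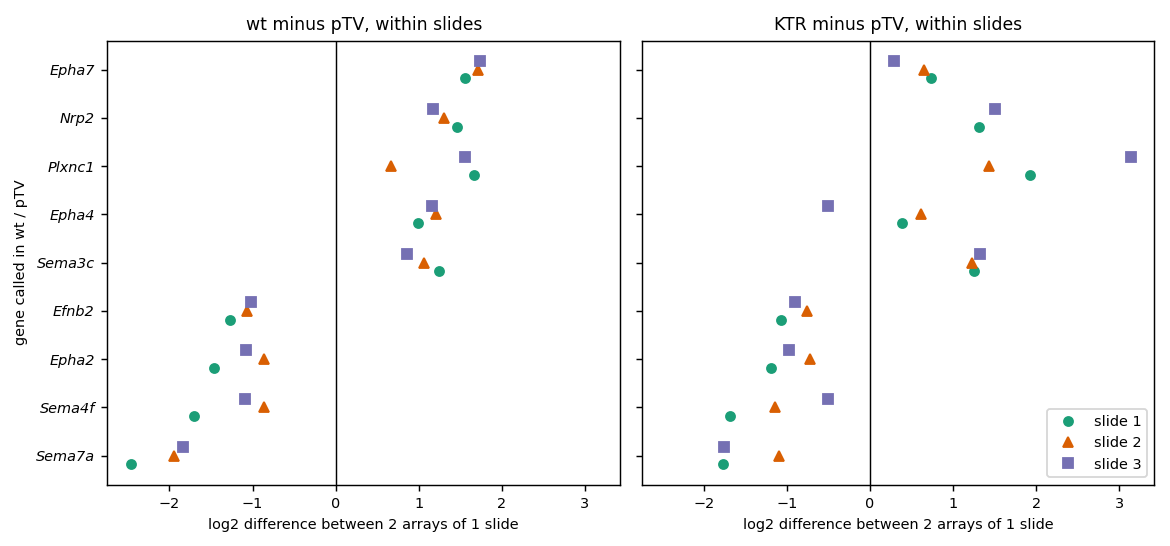
Log2 differences between arrays of the same slide, wild type minus pTV at left and KTR minus pTV at right (horizontal axis), for the 9 guidance genes called in wild type against pTV (vertical axis), with 1 symbol per slide. At left each gene has the same sign on slides 1 to 3, and at right *Epha4* is the exception, at 0.38, 0.61 and -0.50; *Nrp2* has no KTR value on slide 2.

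Over 3 hours of TNFα in wild type cells, *Sema7a* rose and the EphB receptors *Ephb3* and *Ephb6* fell. This was 1 of 42 members higher and 2 lower, or 2.38% and 4.76%, where 1.26% and 0.477% of all genes were called. *Ephb3*, a kinase-active receptor for ephrin-B ligands, went from 1.71, 1.57 and 1.65 to 0.15, 0.14 and 0.28, a log2 difference of -1.46 (SE 0.18, limma adjusted p = 0.000719). The KTR (-0.05, 0.05 and 0.42), K314/315R (0.22 and 0.79) and pTV (-0.21, 0.18 and 0.38) arrays at 3 hours overlapped with the stimulated wild type range. The interval of wild type against pTV ran from -0.32 to 0.46, so that these arrays did not resolve differences inside that range. *Ephb6*, whose product lacks kinase activity, went from -1.96, -2.21 and -1.99 to -2.85, -3.21 and -3.10, a log2 difference of -0.998 (SE 0.18, limma adjusted p = 0.00698), and with normexp background correction the difference was -0.17 (limma adjusted p = 0.849). Its KTR arrays at 3 hours (-3.13, -3.38 and -2.79) overlapped with wild type and its pTV arrays (-3.37, -3.65 and -3.23) lay just below, and K314/315R arrays were higher at -2.74 and -2.30, by 0.90 over pTV (limma adjusted p = 0.00582), under 2-fold. *Efnb1* fell with TNFα by 0.72 (SE 0.091, limma adjusted p = 0.000807), or 1.65-fold, under the 1.8-fold limit. The median log2 difference of the members was -0.176, against -0.0468 over all genes.

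The genes that signal beside these families were taken from lists of their partners. Of 30 Eph and ephrin signalling genes, 28 were tested, and 2 lay below pTV in wild type cells and none above, where 1.61% and 4.04% of all genes were called. They were *Ngef*, the exchange factor ephexin that binds EphA receptors, by -1.24 (SE 0.088, limma adjusted p = 1.3e-06), and *Vav3*, a guanine nucleotide exchange factor, by -1.20 (SE 0.19, limma adjusted p = 0.00103). The list median was -0.0947, against -0.0227 over all genes. In KTR cells 1 of the 28 lay below pTV and in K314/315R cells 3, where 1.49% and 4.23% of all genes were called lower, and none lay above. *Chn1*, not well above background on any K314/315R array, was called lower there than in wild type cells (limma adjusted p = 0.0352). Its difference was at least 1.32-fold, a bound under the 1.8-fold limit.

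Of 24 genes of the slit, netrin and related guidance families, 15 were tested, and 4 exceeded pTV in wild type cells and none lay lower, with a median of 0.287, where 4.04% and 1.61% of all genes were called. *Robo2*, a slit receptor, was not well above background on any pTV array and was at least 7.60-fold higher in wild type (limma adjusted p = 2.35e-07). *Ntn1*, which encodes the secreted cue netrin 1, was higher by 1.77 (SE 0.15, limma adjusted p = 6.81e-06) and *Robo1*, also a slit receptor, by 1.55 (SE 0.15, limma adjusted p = 1.64e-05), and *Slit3* was the remaining one. In KTR cells 2 of the 15 were higher than pTV and in K314/315R cells 6, where 3.8% and 4.76% of all genes were called higher, and again none was lower (1.49% and 4.23% of all genes).

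**Figure D4:**
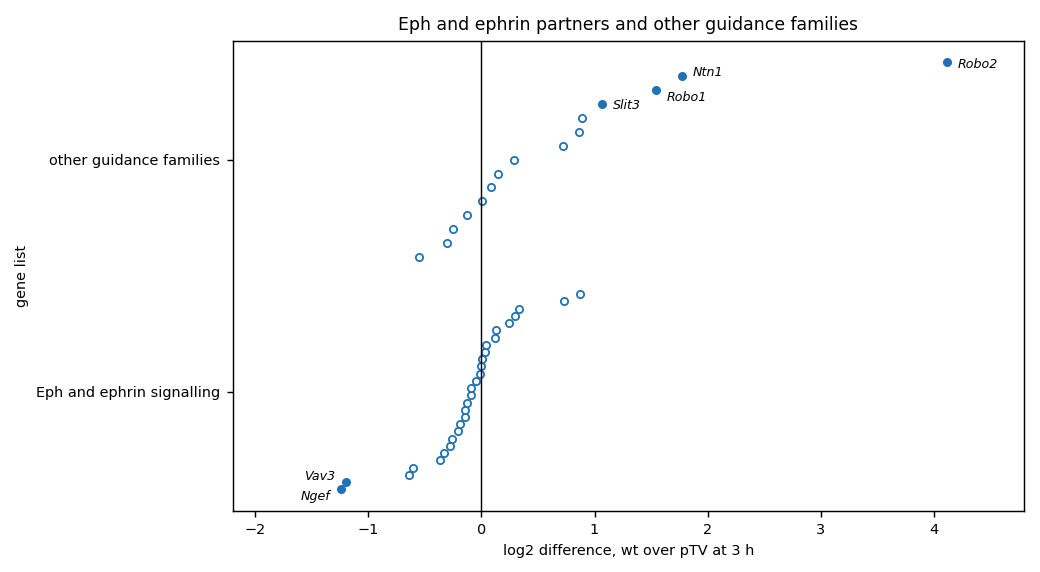
Log2 differences of wild type over pTV cells at 3 hours (horizontal axis) for the tested genes of 2 lists (vertical axis, each list sorted by its values), filled and named where called. *Ngef* and *Vav3* stand at -1.24 and -1.20 in the Eph and ephrin list, and *Robo2*, *Ntn1*, *Robo1* and *Slit3* lie to the right in the list of other guidance families, where the point of *Robo2* is a fitted value against a probe below background in pTV.

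The 30 members called nowhere with their brightest probe included all 5 ephrin-A ligands. *Efna4* was lower than pTV by -0.47 in wild type (limma adjusted p = 0.0117) and -0.46 in KTR (limma adjusted p = 0.0138), and *Efna5* by -0.59 in KTR cells (limma adjusted p = 0.0143), all well under the fold limit. *Ephb4*, the main receptor of ephrin-B2, varied least of all with its brightest probe, between -0.08 and 0.03 over the 6 comparisons. Its second probe, well above background on all 14 arrays, ran from -0.49 (K314/315R over pTV) to -0.18 (wild type over pTV) and was not called. *Sema3a*, the class 3 ligand best known for growth cone collapse, stayed between -0.42 and 0.33, and *Sema3b*, *Sema3e*, *Sema3f* and *Sema3g* between -0.59 and 0.44. The log2 differences of *Sema4b*, *Sema4c*, *Sema4g*, *Sema5a* and *Sema6c* ran from -0.57 to 0.40, and those of *Sema6b* from -0.40 to 0.69. The ligands *Efna1* and *Efna2* lay between -0.53 and 0.30, and the receptors *Epha1* and *Ephb2* between -0.68 and 0.29 and between -0.03 and 0.45. *Efna3* was well above background on 5 arrays only.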

How the data were processed

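Total RNA of 14 samples was hybridised in 1 colour (Cy3) to Agilent Whole Mouse Genome arrays. The deposited scanner files hold spot intensities from Agilent Feature Extraction, version 9.1.1.1 on slides 1 to 3 and 9.1.3.1 on slide 4 per the file headers, with background already subtracted by the authors in the processed signal. The authors' own value table was also deposited as intensities, which differ from the mean signal of each array by a constant factor between 0.837 and 1.2, and it served as an alternative. The methods name Rosetta Resolver, which was not run here, and whether it adjusted its p-values is not stated.

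Control spots and outlier spots were left out (1 to 326 outlier spots per array), spots of one probe were averaged, and log2 of the processed signal minus the 75th percentile of the array was used. Limma 3.58.1 in R 4.3.3 fitted 5 group means to all 14 arrays, with two-sided tests and Benjamini-Hochberg adjustment over 22179 probes, those that all arrays of some group showed well above background. Scripts were tested on simulated data. Intervals are at 95%. The number of arrays limits the precision.

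The members and the gene lists were chosen with earlier results of these data known. Every guidance gene called in at least 1 comparison is named with its values, the others with a range or a level, or with the number of arrays that showed them, and of each pathway list reported the 3 largest called differences of wild type over pTV. One further list is not reported here. Genes whose adjusted p passed and whose fold did not, and genes named beside them, were chosen after their values were seen. Of the 52 genes, 39 matched RefSeq's table by accession. On slides 1 to 3 the replicate number equals the slide, and arrays of equal number deviated together (correlations of deviations from the group means 0.308 to 0.624 in 18 pairs, and -0.516 to 0.113 in 36 pairs of unequal number), so the numbers pair those arrays, which the K314/315R arrays on slide 4 did not show (-0.0905 to 0.416).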

Additional observations from a re-analysis of the deposited data

How the results depend on the processing

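No called difference changed its direction under any alternative that was run. Of the gene-level values, 401 kept their call and 38 lost it, but some of the 401 could not have lost it. An unadjusted p cannot undo a call, and genes with 1 probe were counted as kept for the second brightest probe. Genes whose second probe was not tested gave no value there. Counts of called genes moved most with normexp background correction, to 2 from 9 (wild type over pTV, leaving *Sema7a* and *Efnb2*), 1 from 5 (KTR over pTV), 3 from 8 (K314/315R over pTV) and 1 from 3 (TNFα, leaving *Ephb3*), and the cause was not tested. That correction moved the median of all tested probes by over 0.1 in a pair of comparisons, from -0.0352 to 0.0747 for TNFα and from 0.0564 to -0.0443 for KTR over wild type. The second brightest probe gave 4 for K314/315R over pTV. For KTR over wild type, where the count was 0, it was 2 with no filter on dim probes (*Epha4* and *Epha7*), 3 at an unadjusted p, and 1 (*Epha7*) with the replicate number as a block, with slide as a random block (limma adjusted p = 0.0129) and, chosen after seeing the data, over slides 1 to 3 alone without and with that block (limma adjusted p = 0.00331 with it). For K314/315R over wild type, quantile normalization gave 1 (*Efna3*). Leaving out 1 array at a time gave 6 to 9 genes (wild type over pTV), 4 to 6 (KTR over pTV), 6 to 10 (K314/315R over pTV), 0 to 1 (KTR over wild type), 0 to 0 (K314/315R over wild type) and 3 to 3 (TNFα). Apart from *Epha7*, which was called for KTR over wild type and not for K314/315R over pTV, the block changed no call. *Sema7a* against pTV in each of 3 lines, *Nrp2* in K314/315R over pTV and *Ephb3* with TNFα kept their call under every alternative. None of these genes had a second probe that could be tested. *Plxnc1* in wild type over pTV lost its call under 6. With 2 or 3 arrays per group, precision was lowest for dim or variable probes: the standard error for wild type over pTV was 0.37 for *Plxnc1*, 0.55 for *Plxna4* and 0.74 for *Sema4d*, against 0.078 for *Plxna2*.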
